A study of Mus musculus with 4 samples.

Results

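The glycolysis, pentose phosphate and glycogen genes were described here as 37 gene symbols, taken from the deposited tables wherever the gene name was on the list. They matched 38 of the 28585 gene identifiers listed, since Aldoa had 2. Bulk RNA sequencing was performed on polymorphonuclear myeloid-derived suppressor cells (PMN-MDSCs), neutrophil-lineage cells that restrain T cells, which came from the spleens of 7-day-old pups and were sorted in the study as CD11b+ Ly6Clo/- Ly6G+ cells. There were 2 Dhps cko libraries and 2 Dhps flox libraries. In the study both genotypes carried Dhps fl/fl, floxed alleles of the deoxyhypusine synthase gene, on a C57BL/6J background, and the Dhps cko pups also carried Lysm cre, a Cre recombinase expressed from the Lyz2 locus in myeloid cells, with Dhps flox littermates as the controls. The labels do not say whether a library came from 1 pup or from several, so p-values measure only the spread between these libraries, which may be technical. Levels were given as FPKM, which corrects fragment numbers for the length of the transcript and the depth of the library, a scale on which different genes can be set side by side.

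Glycolysis turns glucose into pyruvate and, through lactate dehydrogenase, into lactate. The pentose phosphate pathway branches off at glucose 6-phosphate and yields NADPH, the reductant that the neutrophil oxidase spends on superoxide, together with ribose for nucleotides. Glycogen is the cell's own glucose store, built by glycogen synthase and opened by glycogen phosphorylase. Neutrophils have few mitochondria and are known for drawing most of their energy from glycolysis. Many of the steps can be carried out by several isozymes, each encoded by its own gene, and the isozymes differ in regulation and in the tissues that use them. The data were examined for which isozymes the neonatal cells used, and for whether any of the genes differed between Dhps cko and Dhps flox.

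FPKM of all genes summed to between 304281 and 319286 per library, between 10611 and 10729 genes reached 1 FPKM, and the top 10 genes accounted for 29.9% to 31.4% of the sum. Read counts were not recoverable. The spacing of low values gave depths of 29600000 to 32900000 fragments, a weak estimate. Only 39.7% to 43.5% of the values lay within 0.15 of a whole fragment, where chance gives 30% at a depth fixed in advance. The depths were chosen as those that fitted the same values best, so 30% is not the chance level here. Dhps itself was at 2.38 and 2.59 FPKM in Dhps cko against 3.57 and 3.11 FPKM in Dhps flox (log2 fold change -0.41, limma adjusted p = 0.63). The value covers the whole gene, and the deleted exons are not given in the sources used here. Lyz2, whose locus carries the Cre, was at 2245 and 2380 FPKM against 6874 and 6544 FPKM (log2 fold change -1.54, limma adjusted p = 0.084). The 12 neutrophil markers summed to between 74475 and 81660 FPKM, none was under 160 FPKM, and Ngp was the most abundant. Their mean was higher in Dhps cko for 11 of 12, with a median log2 difference of 0.11. Primary granule genes, which mark neutrophil precursors, were higher for 4 of 4 (median 0.56) and summed to 56.9 and 33.96 FPKM in Dhps cko against 25.3 and 35.03 FPKM in Dhps flox, so that Dhps cko replicate 1 stood above the other libraries. Markers of other cells were lower by far: B cell markers summed to 65.4 and 68.0 FPKM in Dhps cko and to 41.5 and 51.1 FPKM in Dhps flox, T cell markers to 18.5 and 14.98 against 11.9 and 8.01 FPKM, and monocyte-macrophage markers to 381 and 375 against 313 and 316 FPKM. Of these 3 lists, 8 of 8, 8 of 8 and 9 of 10 markers had a higher mean in Dhps cko. Their median log2 differences were 0.68, 0.67 and 0.23, and no marker was at 0 in all libraries. Erythroid markers summed to 555 and 673 against 466 and 690 FPKM, and eosinophil markers to 96.98 and 92.2 against 79.3 and 81.4 FPKM. For these, 8 of 8 and 6 of 6 markers had a higher mean in Dhps cko (median log2 differences 0.10 and 0.24). Of 8 cell cycle genes, 1 had a higher mean in Dhps cko (median log2 difference -0.03), and they summed to 354 and 319 against 351 and 359 FPKM. B, T, erythroid and eosinophil cells lack Ly6G, which the sort required. The purity of the sorted cells is not given in the sources used here. The part of these markers in the results was not tested. In bulk RNA, fewer cells of a type and less RNA per cell cannot be told apart.

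The members were abundant. Of the 38 identifiers, 14 reached a mean of 100 FPKM, 14 lay from 10 to 100 FPKM, 8 from 1 to 10 FPKM and 2 under 1 FPKM, where 330 of all 28585 listed genes reached 100 FPKM. As listed, Pkm was the highest member, with a mean of 339 ± 10.9 FPKM (SD, n = 4), followed by G6pdx at 263 ± 7.95 FPKM, Tkt at 253 ± 9.82 FPKM and Pygl at 243 ± 4.84 FPKM. The leading genes were thus drawn from glycolysis, from both arms of the pentose phosphate pathway and from glycogen breakdown.

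**Figure D1:**
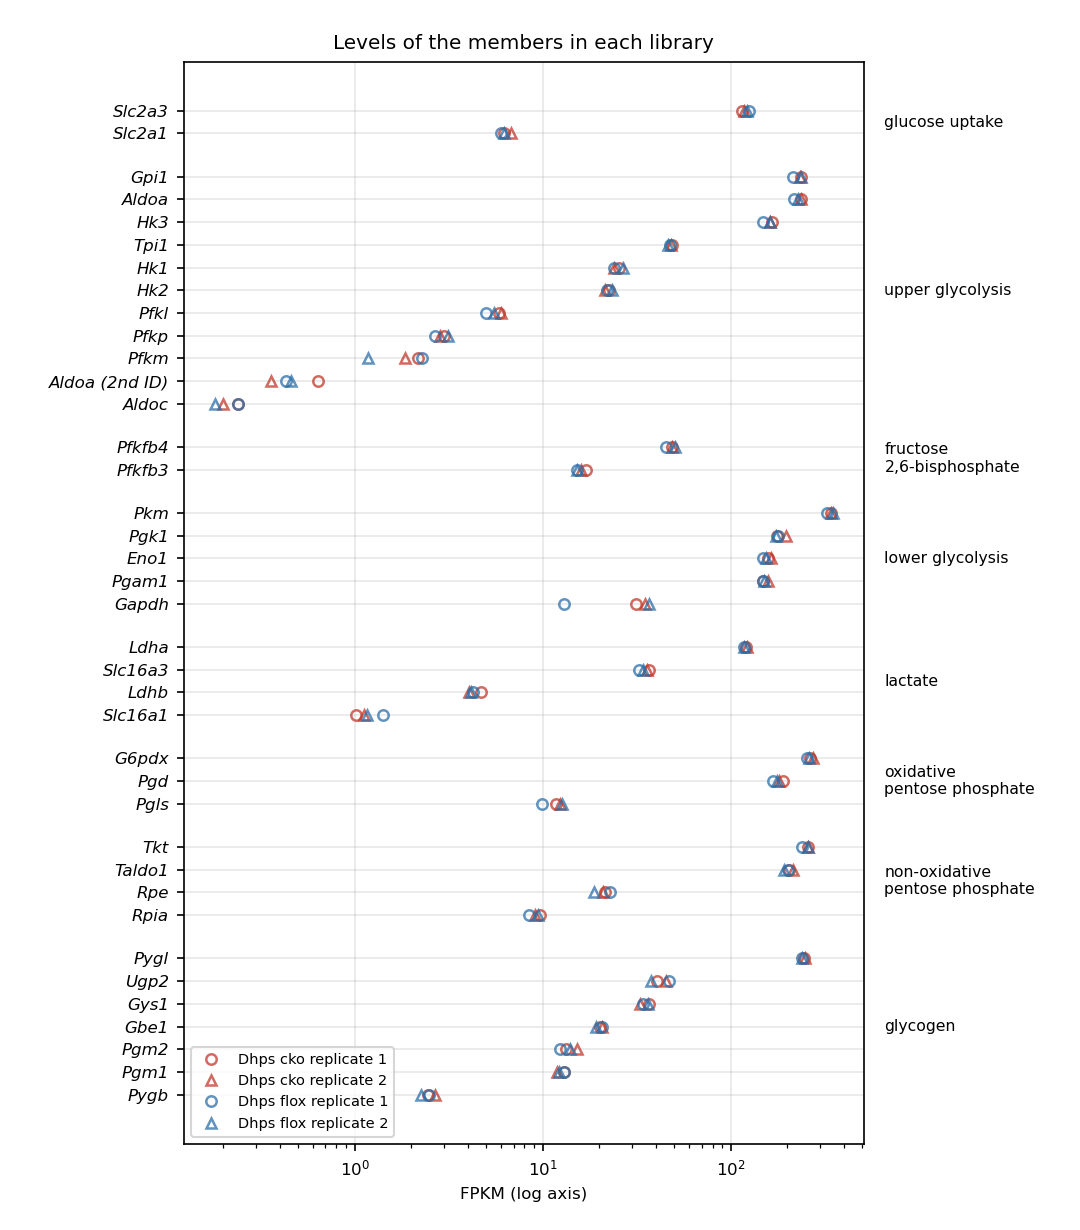
FPKM of each of the 38 identifiers (log axis) in each library, grouped by pathway role. Circles are replicate 1, triangles replicate 2, red is Dhps cko and blue is Dhps flox. The 4 points of a gene nearly coincide for most members, while listed Gapdh spans 13.04 to 36.7 FPKM and Pfkm spans 1.18 to 2.29 FPKM.

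Among the genes for glucose entry the leader was Slc2a3, which encodes GLUT3, a transporter of high affinity. Slc2a3 (GRCm38 chr6:122727809-122801640, minus strand) read 115 and 117 FPKM in the Dhps cko libraries (replicate 1, then 2) and 125 and 121 FPKM in the Dhps flox libraries. Slc2a1, which encodes GLUT1, the broadly expressed transporter, was at 6.22, 6.77, 6.01 and 6.25 FPKM in the same order. The ratio of Slc2a3 to Slc2a1 lay between 17.3 and 20.7 in the 4 libraries, and Slc2a3 held 94.98% ± 0.36 (SD, n = 4) of the FPKM of the pair. Counted among 8 listed genes of the SLC2A family, the share was 84.2% ± 0.89, and the next were Slc2a9, a urate carrier, with 7.32% and Slc2a1 with 4.44%.

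Hexokinases trap glucose in the cell as glucose 6-phosphate. Hk3, the isozyme typical of myeloid cells, was at 166 and 162 FPKM in Dhps cko and at 148 and 161 FPKM in Dhps flox (chr13:55005985-55021385, minus strand). Hk1, the widely expressed isozyme that binds mitochondria, was at 25.4 and 23.9 FPKM against 24.0 and 26.9 FPKM. Hk2, the insulin-responsive isozyme of muscle, was at 22.6 and 21.4 FPKM against 21.9 and 23.2 FPKM. Hk3 therefore exceeded each of the others in every library, by 5.98 to 6.78 times over Hk1 and by 6.75 to 7.55 times over Hk2, and it held 77.1% ± 0.95 of the sum. Hk1 and Hk2 were close, with a ratio of 1.10 to 1.16, above 1 in 4 of 4 libraries. With Hkdc1 counted, at a mean of 0.092 FPKM, the share of Hk3 was 77.02%. Adpgk, which phosphorylates glucose with ADP in place of ATP and is no member of the set, was at 303 and 315 FPKM in Dhps cko and at 304 and 313 FPKM in Dhps flox, or 1.94 ± 0.094 times Hk3. Adpgk was chosen for mention after its values were seen.

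The steps after hexokinase were uneven. Gpi1, which interconverts glucose 6-phosphate and fructose 6-phosphate, had a mean of 230 ± 10.5 FPKM (SD, n = 4). Phosphofructokinase, the committed step of glycolysis, was the lowest step of the pathway: its 3 isozymes together summed to 11.0 and 10.7 FPKM in Dhps cko and to 9.97 and 9.78 FPKM in Dhps flox. Hexokinases summed to 19.3 to 21.6 times as much, pyruvate kinase to 30.8 to 35.8 times and Tpi1 (triosephosphate isomerase), the next lowest enzyme apart from Gapdh, to 4.42 to 4.77 times. Among the 3, Pfkl, the liver-type subunit (chr10:77986947-78010083, minus strand), was at 5.84 and 6.03 FPKM against 5.00 and 5.48 FPKM. Pfkp, the platelet-type subunit, was at 3.00 and 2.86 FPKM against 2.68 and 3.12 FPKM, and Pfkm, the muscle-type subunit, at 2.18 and 1.85 FPKM against 2.29 and 1.18 FPKM. The shares were 53.8% ± 2.85 for Pfkl, 28.2% ± 2.51 for Pfkp and 18.0% ± 4.61 for Pfkm, and the order was the same in each library. Of the exons of Pfkm, 10.2% overlapped Gm26513 on the same strand.

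Fructose 2,6-bisphosphate is the strongest activator of phosphofructokinase, and the PFKFB enzymes make and remove it. Pfkfb4 (chr9:108991778-109032228, plus strand) was at 48.4 and 48.6 FPKM in Dhps cko and at 45.3 and 50.7 FPKM in Dhps flox. Pfkfb3, the isozyme with the highest kinase activity relative to its phosphatase, was at 17.03 and 16.1 FPKM against 15.2 and 15.3 FPKM. Pfkfb4 was 2.84 to 3.32 times Pfkfb3 and held 75.2% ± 1.199 of the pair, or 71.8% ± 1.26 when Pfkfb1 and Pfkfb2 were counted. Each of the 2 regulators had a mean above that of all 3 phosphofructokinases summed.

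**Figure D2:**
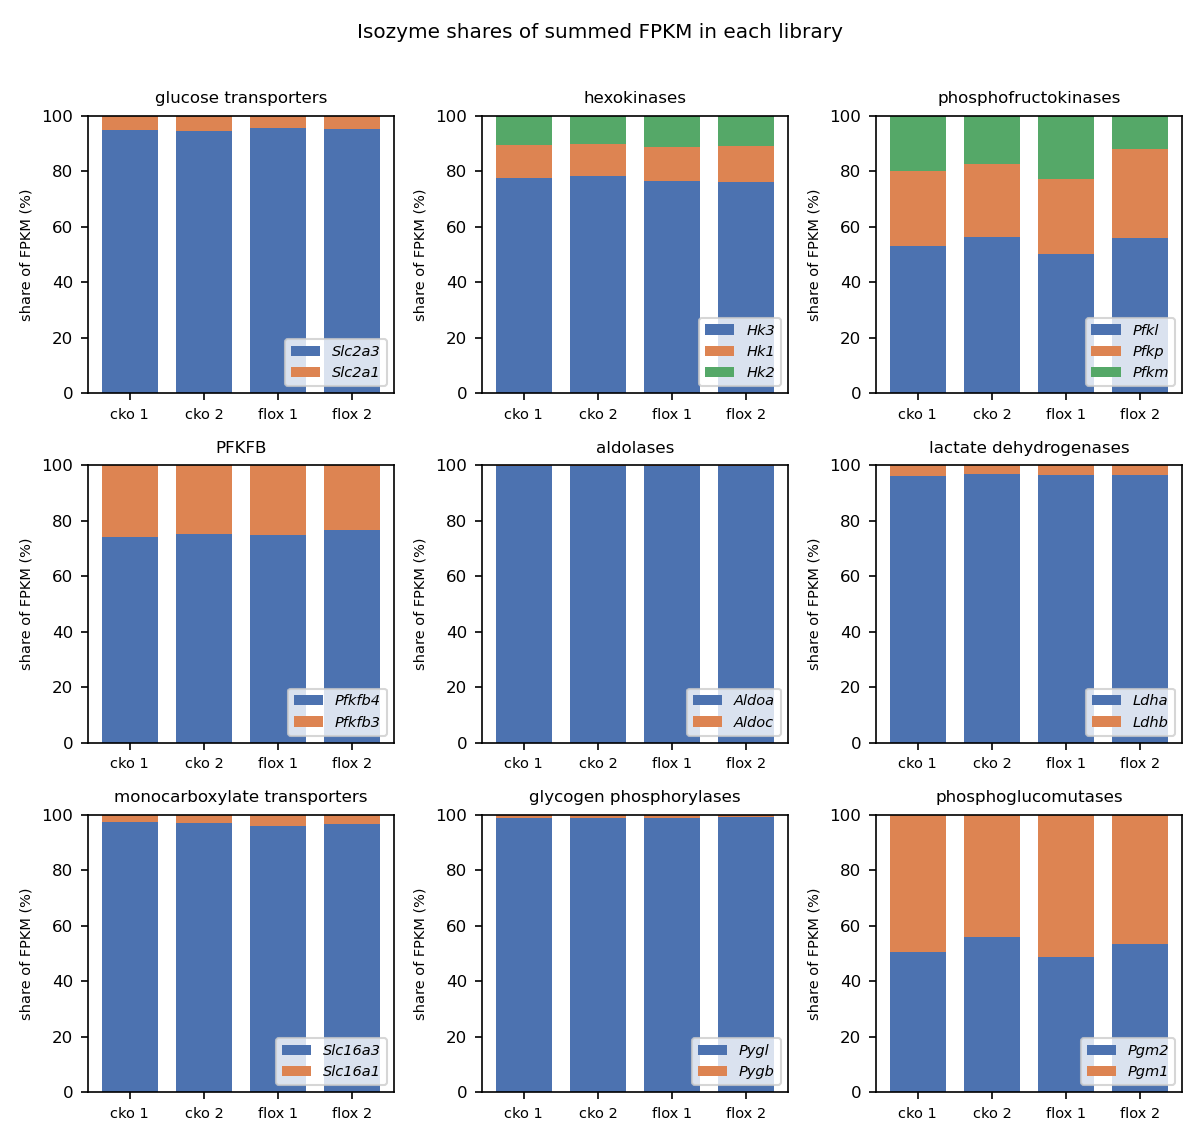
Share of the summed FPKM (percent, stacked bars from 0 to 100) held by each member isozyme in each of the 4 libraries, for 9 steps with more than 1 member. Slc2a3, Hk3, Pfkl, Pfkfb4, Aldoa, Ldha, Slc16a3 and Pygl lead in every library, while Pgm2 and Pgm1 are near equal.

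Aldolase splits fructose 1,6-bisphosphate into 2 trioses. Aldoa (ENSMUSG00000030695, chr7:126795234-126800751, minus strand) was at 237 and 237 FPKM against 216 and 228 FPKM, and Aldoc, the brain isozyme, was at 0.24 and 0.20 FPKM against 0.24 and 0.18 FPKM. Aldoa held 99.9% of the pair. The second identifier under the name Aldoa (ENSMUSG00000114515) lies just upstream of the main gene and had a mean of 0.47 FPKM. Tpi1, which interconverts the trioses, had a mean of 47.7 ± 0.90 FPKM.

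Gapdh, the enzyme that oxidizes glyceraldehyde 3-phosphate, stood out for how it was listed. At its own locus (ENSMUSG00000057666, chr6:125161715-125166467, minus strand) it was at 31.5 and 35.1 FPKM in Dhps cko and at 13.04 and 36.7 FPKM in Dhps flox. Dhps flox replicate 1 was thus below the other 3 libraries. The genome also carries many processed pseudogenes of Gapdh, copies of its mRNA pasted back into the chromosomes, and 140 listed genes, 134 of them pseudogenes, shared at least 90% identity with a Gapdh transcript over at least 200 bases. These copies summed to 1917 and 1818 FPKM in Dhps cko and to 1739 and 1762 FPKM in Dhps flox. The Gapdh locus held only 0.744% to 2.04% of the total of itself and its copies. Most of that total lay in 22 pseudogenes that were at least 99% identical to Gapdh over at least 800 bases, with sums of 1661 to 1846 FPKM.

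Several of these copies can hardly be told apart from Gapdh by sequence. Below are 60 bases of Gapdh, from base 433 to base 492 of the reading frame most of its coding transcripts share, from GENCODE M21 on GRCm38, with the same stretch of 2 of its 5 highest copies. The copies are Gm12671 (chr4:91851668-91852669, minus strand), which was identical to Gapdh over all 1002 bases aligned, and Gm5559 (chr5:95861714-95862715, plus strand), which differed at 1 of 1002. The capital letter marks that difference, and all other letters are shared.
Gapdh: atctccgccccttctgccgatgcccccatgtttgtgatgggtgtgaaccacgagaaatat
Gm12671: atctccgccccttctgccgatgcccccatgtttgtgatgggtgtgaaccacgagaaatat
Gm5559: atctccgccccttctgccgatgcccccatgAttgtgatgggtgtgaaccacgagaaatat
Gm12671 was listed at 173, 161, 150 and 154 FPKM in Dhps cko replicates 1 and 2 and Dhps flox replicates 1 and 2, and Gm5559 at 204, 195, 185 and 188 FPKM. Each was thus above listed Gapdh in every library. Gm7336, the highest copy, was at 236 to 275 FPKM. It was 99.8% identical to a Gapdh transcript over 1232 bases by blastn, and placed without gaps on the reading frame above it differed at 26 of 1052 bases, none of them in the stretch shown. With all copies added, Gapdh came to 1949 and 1853 FPKM against 1752 and 1799 FPKM, a mean of 1838 ± 84.6 FPKM that was above any other step.

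**Figure D3:**
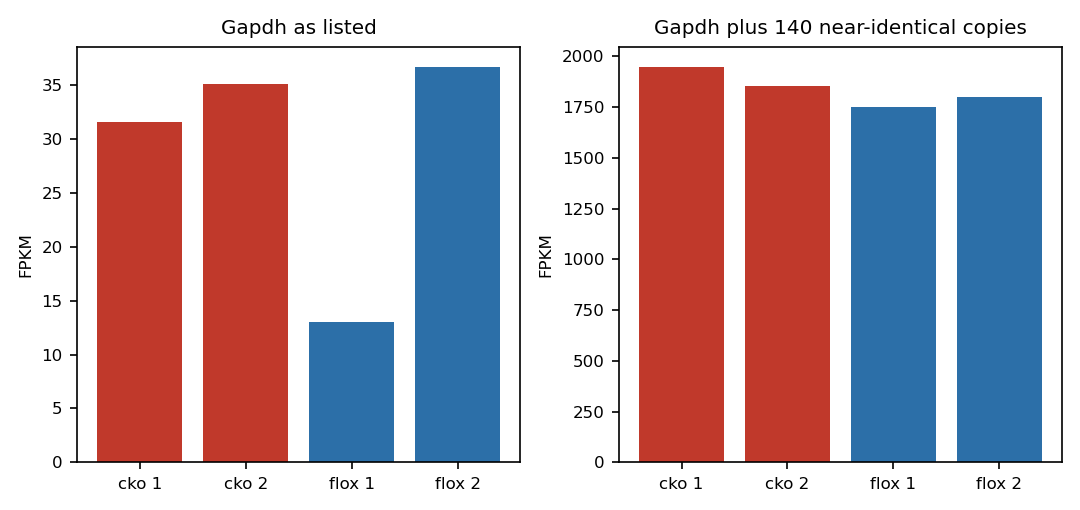
Gapdh as listed (left) and Gapdh with its near-identical listed copies added (right), in FPKM, as 1 bar per library from 0; red is Dhps cko and blue is Dhps flox, and the vertical scales differ. Listed Gapdh is low in Dhps flox replicate 1 (13.04 FPKM), whereas the sums with copies lie between 1752 and 1949 FPKM.

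The other lower glycolytic enzymes shared this feature to a smaller extent. Pgk1 (phosphoglycerate kinase), which makes the ATP of this stage, had a mean of 182 ± 10.6 FPKM (SD, n = 4) and 4 listed copies that summed to 17.3 to 20.3 FPKM. Pgam1 (phosphoglycerate mutase) had a mean of 151 ± 4.34 FPKM, and Pgam1-ps2, a pseudogene identical to it over the aligned bases, was at 27.6 to 32.7 FPKM. Pgam2, the muscle isozyme, was at 11.3 and 10.6 FPKM in Dhps cko and at 14.2 and 11.9 FPKM in Dhps flox. Eno1 (enolase) had a mean of 156 ± 6.70 FPKM and 5 listed copies that summed to 55.2 to 61.8 FPKM. Eno3, the enolase of muscle, was at 11.9 and 10.04 FPKM against 10.3 and 8.26 FPKM. Pkm, the pyruvate kinase gene whose 2 splice forms this table does not separate, was at 340 and 343 FPKM against 324 and 350 FPKM, and Pklr, the liver and red cell isozyme, held 0.15% of the pair. Of the exons of Pkm, 15.3% overlapped Gm49759 on the same strand.

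Lactate is made by lactate dehydrogenase and leaves the cell with a proton through monocarboxylate transporters. Ldha, the subunit that favours lactate (chr7:46841475-46855627, plus strand), was at 120 and 122 FPKM in Dhps cko and at 118 and 118 FPKM in Dhps flox. Ldhb, the subunit of oxidative tissues, was at 4.72 and 4.06 FPKM against 4.28 and 4.16 FPKM. The ratio of Ldha to Ldhb was 25.4 to 29.97, and Ldha held 96.5% ± 0.24 of the pair. Slc16a3, which encodes the exporter MCT4 (chr11:120948480-120960868, plus strand), was at 36.9 and 35.8 FPKM against 32.5 and 34.0 FPKM. Slc16a1, which encodes MCT1, was at 1.02 and 1.12 FPKM against 1.41 and 1.16 FPKM. Slc16a3 was thus 23.0 to 36.1 times Slc16a1 and held 96.7% ± 0.63 of the pair.

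**Figure D4:**
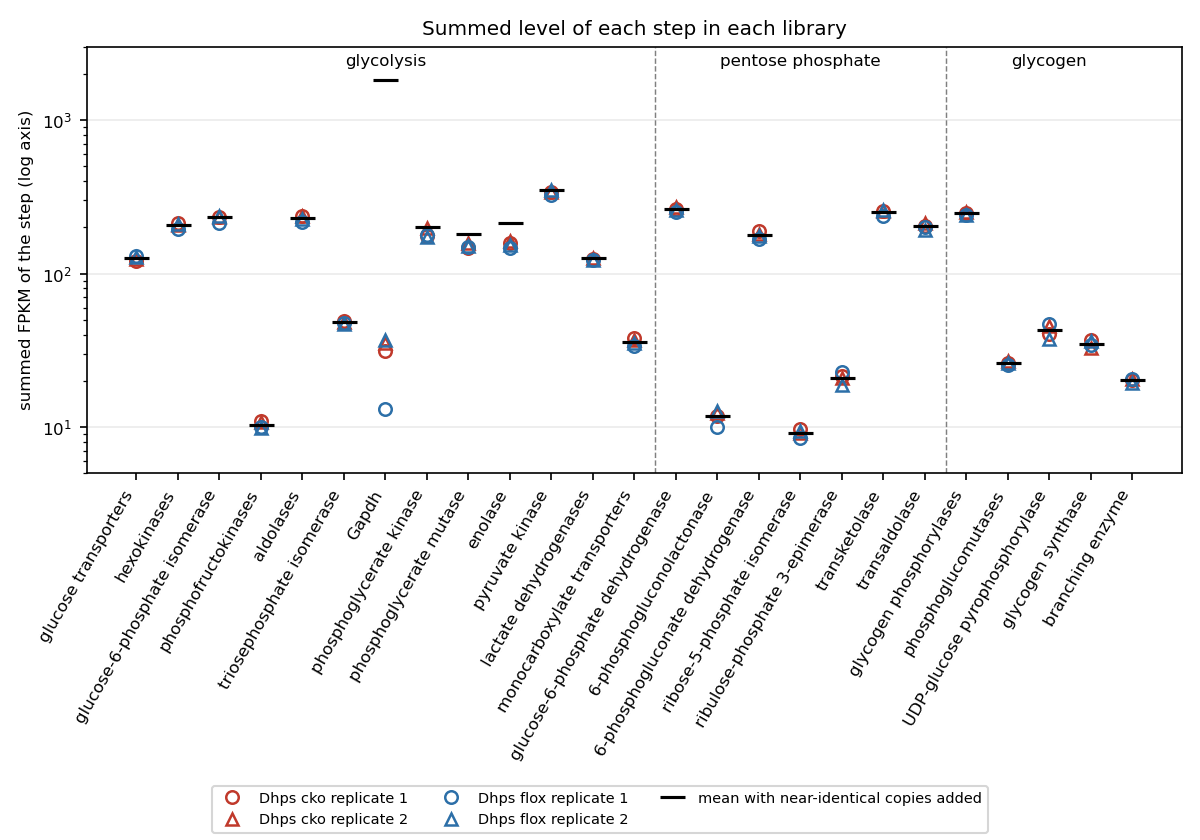
Summed FPKM of the member isozymes of each step (log axis) in glycolysis, the pentose phosphate pathway and glycogen metabolism. Points are libraries (circles replicate 1, triangles replicate 2, red Dhps cko, blue Dhps flox) and the black bar is the mean with near-identical listed copies added. Phosphofructokinases are lowest in glycolysis at 9.78 to 11.0 FPKM, and Gapdh moves from a mean of 29.1 FPKM as listed to 1838 FPKM with copies.

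The oxidative arm of the pentose phosphate pathway consists of 3 enzymes, of which the first and the third make NADPH. G6pdx (glucose-6-phosphate dehydrogenase, chrX:74409483-74429194, minus strand) was at 265 and 272 FPKM in Dhps cko and at 253 and 261 FPKM in Dhps flox. Pgd (6-phosphogluconate dehydrogenase) was at 188 and 182 FPKM against 168 and 175 FPKM. Pgls, the lactonase between them, was at 11.8 and 12.4 FPKM against 9.97 and 12.7 FPKM, so that G6pdx was 20.6 to 25.4 times Pgls. Of the exons of Pgls, 20.6% overlapped Fam129c on the same strand, and of those of G6pdx, 13.6% overlapped Ikbkg on the opposite strand. H6pd, the endoplasmic reticulum form of the dehydrogenase, was lower than G6pdx by 9.19 to 10.1 times.

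In the non-oxidative arm, which returns pentoses to glycolysis, the same contrast was found. Tkt (transketolase) had a mean of 253 ± 9.82 FPKM and Taldo1 (transaldolase) a mean of 203 ± 9.29 FPKM. The isomerases that feed them were low, with a mean of 9.17 ± 0.54 FPKM for Rpia (ribose-5-phosphate isomerase) and 20.97 ± 1.61 FPKM for Rpe (ribulose-phosphate 3-epimerase). Tkt was 26.6 to 28.2 times Rpia and 10.5 to 13.7 times Rpe in single libraries. Of the exons of Rpe, 17.9% overlapped Kansl1l on the opposite strand.

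Among the glycogen genes, the phosphorylase was far above the synthase. Pygl, the liver-type glycogen phosphorylase (chr12:70190811-70231488, minus strand), was at 245 and 249 FPKM against 238 and 240 FPKM, and Pygb, the brain type, was at 2.47 and 2.69 FPKM against 2.49 and 2.26 FPKM. Pygl held 98.99% ± 0.058 of the pair, and 96.9% ± 0.60 with Pygm, the muscle type, counted. Pygm was at 4.98 and 4.76 FPKM against 7.52 and 4.40 FPKM, above Pygb in every library. Gys1, the glycogen synthase of muscle and most other tissues, was at 36.7 and 32.9 FPKM against 34.1 and 36.2 FPKM, and Pygl was 6.63 to 7.56 times Gys1. Ugp2, which makes the UDP-glucose that the synthase uses, was at 40.5 and 45.3 FPKM against 47.1 and 37.6 FPKM, a spread within genotypes larger than the difference between them. Gbe1, the branching enzyme, had a mean of 20.1 ± 0.62 FPKM. Pgm2 (ENSMUSG00000029171) and Pgm1 (ENSMUSG00000025791), named as in the deposited tables, were the 1 isozyme pair with no clear leader, since Pgm2 was at 13.2, 15.2, 12.4 and 14.1 FPKM and Pgm1 at 12.98, 11.9, 12.9 and 12.2 FPKM, and Pgm1 was the higher in Dhps flox replicate 1. Both genes carry the name of phosphoglucomutases, enzymes that link glucose 1-phosphate and glucose 6-phosphate. FPKM do not show how far each carries out this reaction. Older annotation used the symbols the other way round. Of the exons of Pgm1, 13.6% overlapped Itgb3bp on the opposite strand.

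Dhps cko and Dhps flox were then compared with limma on log2(FPKM + 0.1) over the 17948 genes whose mean reached 0.1 FPKM, a filter that all 38 members passed. With an adjusted p under 0.05, 0 of 38 members were called, where 1 of all genes tested, or 0.00557%, was. With an unadjusted p under 0.05, 0 of 38 members passed, where 7% of all genes did (4.72% higher in Dhps cko and 2.28% lower). Leaving out Dhps flox replicate 1 brought Pfkm under this line, and leaving out Dhps flox replicate 2 brought Gapdh and Pgls under it, all 3 higher in Dhps cko, but none had an adjusted p under 0.05. In such a fit 1 genotype has a single library, which is assumed to vary like the other genotype. The smallest limma adjusted p of a member was 0.76, for Slc16a3 (log2 fold change 0.13, SE 0.059, n = 2 and 2). Isozyme shares were compared only by the exact two-sided permutation test, which on 2 against 2 libraries cannot go below p = 0.33 and so could give no call. In 3 of 9 families with more than 1 member, the Slc2a3 and Slc2a1 pair, the hexokinases and the Slc16a3 and Slc16a1 pair, the shares of the leading member did not overlap between genotypes, where the levels of 36% of all genes tested did not. Hk3, for example, held 77.6% and 78.1% in Dhps cko against 76.3% and 76.2% in Dhps flox. With the other isozymes of each family counted, the shares of Pgam1 and Pkm did not overlap either.

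The intervals show what size of change the comparison leaves room for. For 33 of 38 members the 95% interval of the log2 fold change lay inside a 1.5-fold change in either direction, and for 36 it lay inside 2-fold. The 5 that reached past 1.5-fold were Gapdh, Pfkm, Slc16a1, Aldoc and the second Aldoa identifier, and Gapdh and Pfkm also reached past 2-fold. Among the leading isozymes, the log2 fold change was 0.03 for Ldha (95% interval -0.09 to 0.16), 0.09 for Hk3 (-0.08 to 0.25), 0.10 for Aldoa (-0.05 to 0.24), 0.05 for Pygl (-0.09 to 0.18), 0.02 for Pfkfb4 (-0.17 to 0.21) and 0.10 for Pgm2 (-0.17 to 0.38). The value of Pgm2 moved with single libraries: it was 0.0045 without Dhps cko replicate 2, 0.012 without Dhps flox replicate 1, 0.19 without Dhps flox replicate 2 and 0.20 without Dhps cko replicate 1.

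**Figure D5:**
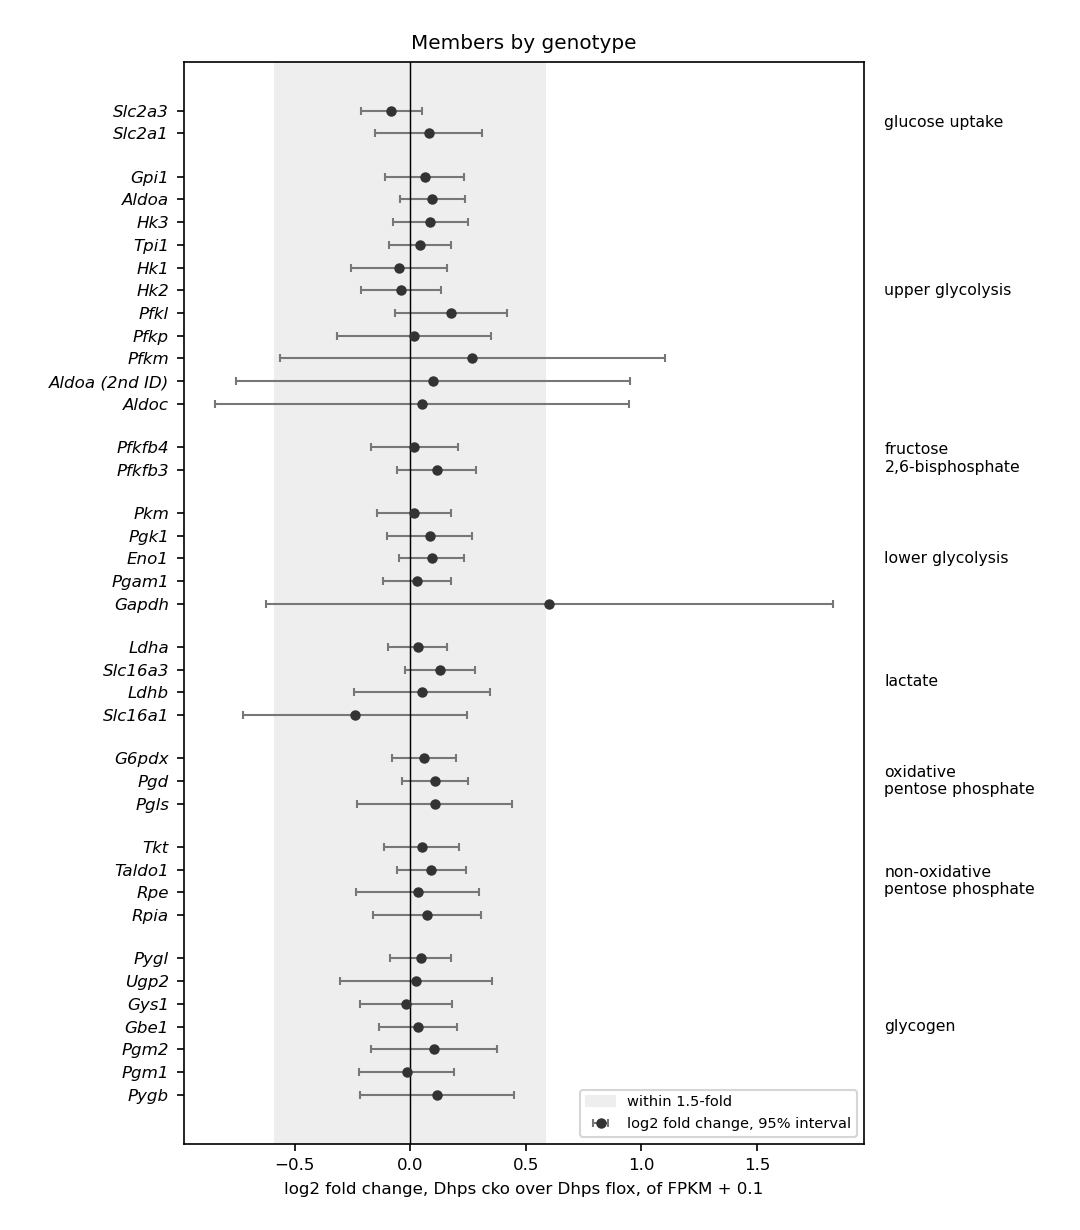
Log2 fold change of FPKM + 0.1, Dhps cko over Dhps flox, of each member (points) with its 95% interval from limma (bars); the grey band marks a change within 1.5-fold. Every interval crosses 0, and those of Gapdh (-0.63 to 1.83) and Pfkm (-0.56 to 1.10) reach furthest above 0.

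The member furthest above 0 was listed Gapdh, with a log2 fold change of 0.60 (SE 0.48, limma adjusted p = 0.83). Without Dhps flox replicate 1, the library with the low value, it was -0.14, and with the near-identical copies added it was 0.10. The next were Pfkm at 0.27 (SE 0.32), Pfkl at 0.18 (SE 0.094), Slc16a3 at 0.13 and Pfkfb3 at 0.12 (SE 0.067). Pfkm was -0.18 without Dhps flox replicate 2, which held its lowest value. The members furthest below 0, among those whose mean reached 1 FPKM, were Slc16a1 at -0.24 (SE 0.19), Slc2a3 at -0.08 (SE 0.051), Hk1 at -0.05, Hk2 at -0.04 and Gys1 at -0.02. None of these passed the test. Slc16a1 was at -0.11 without Dhps flox replicate 1, which held its highest value, and at -0.37 without Dhps flox replicate 2.

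By sign alone, 32 of 38 members had a log2 fold change above 0 and 6 below, where 52.1% of all genes tested were above 0. The count moved with the scaling. With each library scaled to the same FPKM sum (TPM) it was 27 above and 11 below, against 45.8% of all genes tested above 0. After quantile normalization it was 20 above and 17 below, with 1 at 0, against 47.8% of all genes tested above 0. It also moved with single libraries, to 25 above and 13 below without Dhps flox replicate 1, 28 and 10 without Dhps cko replicate 1, 30 and 8 without Dhps flox replicate 2 and 33 and 5 without Dhps cko replicate 2. The median of the members was 0.06 on the log2 scale, that of all genes tested 0.01 and that of the neutrophil markers 0.11. Under TPM scaling the medians of the members and of all genes tested were 0.03 and -0.02. After quantile normalization they were 0.0060 and -0.01. The genotypes did not overlap for 12 members that were higher in Dhps cko (Hk3, Pfkl, Pfkfb3, Aldoa, Tpi1, Eno1, Ldha, Slc16a3, G6pdx, Pgd, Taldo1 and Pygl) and for 2 that were lower (Slc2a3 and Slc16a1), where 20% and 16% of all genes tested did not overlap in these directions. Abundant genes as a whole were shifted in the same way. Of the 330 genes whose mean reached 100 FPKM, 42.4% were higher in both Dhps cko libraries and 5.15% were lower in both. Their median log2 fold change was 0.07, or 0.00 after quantile normalization. That scaling holds it near 0 by construction, since it gives every library the same distribution. Of the 14 members whose mean reached 100 FPKM, 8 were higher in both Dhps cko libraries and 1 was lower in both.

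Other genes of the same pathways, a list of 68 symbols of which 66 were found and 56 passed the filter, gave 0 with a limma adjusted p under 0.05 and 2 with an unadjusted p under 0.05, both higher in Dhps cko, where 4.72% of all genes tested passed in that direction. The last count was 0 without Dhps cko replicate 1, 1 without Dhps cko replicate 2 or Dhps flox replicate 1, and 3 without Dhps flox replicate 2. Gyg (glycogenin), the protein primer on which glycogen is built, was at 58.6 and 62.3 FPKM in Dhps cko and at 52.6 and 55.3 FPKM in Dhps flox (log2 fold change 0.16, limma adjusted p = 0.70). The groups did not overlap for this gene. Over the 56 genes, they did not overlap for 3 that were higher in Dhps cko and for 12 that were lower, where the shares of all genes tested were 20% and 16%. Slc2a2, which encodes the liver transporter GLUT2, was at 0.40 and 0.22 FPKM against 0.09 and 0.09 FPKM (log2 fold change 1.07, limma adjusted p = 0.70). It passed the filter of 0.1 FPKM only through the Dhps cko libraries, where it was high, so its place in the count of 2 is no support for a difference. The median over the 56 genes was -0.01 on the log2 scale, with 27 above 0 and 29 below.

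A list of 12 regulators of these pathways gave 0 with an adjusted p under 0.05 among the 11 tested, and 2 with an unadjusted p under 0.05, where 7% of all genes tested passed in either direction. Egln3, an oxygen-sensing prolyl hydroxylase, was at 4.43 and 4.40 FPKM in Dhps cko and at 5.33 and 5.30 FPKM in Dhps flox (log2 fold change -0.26, limma adjusted p = 0.65). Myc, a transcription factor that drives growth and glycolytic genes, was at 1.60 and 1.44 FPKM against 1.07 and 1.09 FPKM (log2 fold change 0.46, limma adjusted p = 0.68). The genotypes did not overlap for either gene, as for 36% of all genes tested. Hif1a, the oxygen-regulated factor known for raising glycolytic genes, had a mean of 11.0 ± 0.30 FPKM (SD, n = 4) and a log2 fold change of -0.01.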

How the data were processed

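The authors trimmed the reads with Cutadapt, aligned them with HISAT2 to the mouse genome (mm10, per the labels) and calculated FPKM per gene with StringTie and ballgown. The deposited FPKM are rounded to 2 decimals and carry no counts, so no count test was run, and strandedness is not given in the sources used here. FPKM divide the fragments of a library among its genes: when a few abundant genes take more fragments, all others read lower. Reads that match several copies may be split between them.

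From these values, log2(FPKM + 0.1) was compared with limma 3.58.1 in R 4.3.3 (trend, no replicate block) over genes whose mean reached 0.1 FPKM, with Benjamini-Hochberg adjustment over all of them. The comparison was tested on simulated data, but only with changes larger than any seen in a member. Positions, exons and near-identical copies (blastn 2.17.0, at least 90% identity over at least 200 bases) came from GENCODE M21, which held 28511 of the identifiers. Isozyme shares were computed in each library with Python 3.11.15, pandas 2.3.3 and scipy 1.17.1.

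Members and gene lists were chosen with earlier results of these data known. Every member was given a level. Values in every library were given for the leading member and its nearest member in families with more than 1, and for up to 5 members with the largest positive and 5 with the largest negative log2 fold change at a mean of at least 1 FPKM. Alternatives were other pseudocounts, filters, scalings, a limma fit without trend, a replicate block, leaving out each library, all isozymes of a family and, chosen after seeing the data, copies summed with their gene. Slc2a2, Hif1a, Pgam2, Eno3, Pygm and H6pd were named after their values were seen. A further 2 pathway genes, beyond the 68 symbols listed, are not reported here.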

Additional observations from a re-analysis of the deposited data

How the results depend on the processing

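No member had an adjusted p under 0.05 in any of the 14 alternatives. All genes tested gave 1 such call, which became 0 with a pseudocount of 0.01, with no filter, with the replicate block and without any single library (0 to 0), 4 with a minimum mean of 1 FPKM and 2 after quantile normalization. Quantile normalization also gave 1 member (Slc2a3) an unadjusted p under 0.05, lower in Dhps cko, and moved the members' median from 0.06 to 0.0060 on the log2 scale. Leaving out single libraries gave 0 to 2 members with an unadjusted p under 0.05 and higher in Dhps cko. The 2 other pathway genes became 4 with no filter and in limma without trend, 1 with a pseudocount of 1, a minimum mean of 1 FPKM, TPM scaling, size factors and quantile normalization, 0 with the replicate block, and 0 to 3 when single libraries were left out.

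Leading isozymes kept their lead with all isozymes of the family counted, at 84.2% for Slc2a3, 71.8% for Pfkfb4, 96.1% for Ldha, 94.8% for Slc16a3 and 96.9% for Pygl. Small log2 fold changes turned sign: Pfkfb4 was -0.013 under TPM scaling and -0.014 after quantile normalization, where Pygl was -0.031 and Ldha -0.032. Without single libraries, Gapdh ran from -0.14 to 1.34, Pfkm from -0.18 to 0.72, Pfkfb4 from -0.062 to 0.10, Hk1 from -0.13 to 0.034, Hk2 from -0.080 to 0.0037 and Gys1 from -0.094 to 0.061, while Pgm2 ran from 0.0045 to 0.20, Slc16a1 from -0.37 to -0.11, Hk3 from 0.028 to 0.15, Aldoa from 0.059 to 0.13, Pfkl from 0.11 to 0.24 and Pfkfb3 from 0.073 to 0.16 with no change of sign. Of the 38 members, 13 kept their sign in every alternative. The cause of these changes was not tested, apart from the fewer genes or libraries that some alternatives hold by construction.

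Same-numbered libraries of the genotypes did not deviate together (r = -0.06 across 10629 genes, which are not independent replicates). This rests on a single replicate difference in each genotype, so it cannot show whether the libraries were paired. The replicate block left 0 members called and 1082 genes with an unadjusted p under 0.05, against 1257 without it. FPKM carry no counts, so the depth behind single values is only approximate.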
